A study of Mus musculus with 12 samples.

Results

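Ighm encodes the heavy chain of immunoglobulin M, the first antibody class that a B cell makes. Its transcript was followed here together with 7 genes that B cells use with it (Ighd, Igkc, Jchain, Cd79a, Cd79b, Ms4a1 and Pou2af1) in sorted regulatory T cells (Treg), the CD4 lineage that keeps other immune cells in check. The 8 genes were taken by symbol from the 55011 genes of the count table. They were chosen by name, with the counts of Ighm in these libraries (high in WT, low in ∆Foxp3) already in view, so their differences between genotypes are given as descriptions, with no test. Of the 8 genes, 6 passed the filter on low counts that left 13295 genes, and Jchain and Ms4a1 did not.

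The study compared Treg of WT and ∆Foxp3 male C57BL/6 mice, all 21 days old, in spleen and in lung, with 3 libraries in each of the 4 groups. WT mice of both tissues carried Foxp3.ires.GFP, an intact Foxp3 gene with a green reporter. The labels give the spleen ∆Foxp3 libraries the genotype ∆Foxp3.EGFP.iCre X R26.YFP and the lung ∆Foxp3 libraries ∆Foxp3.ires.GFP, but the protocol mentions the latter alone for spleen and lung alike, which leaves the spleen allele uncertain. Foxp3 is the transcription factor that Treg rely on, and the labels do not state which part of it these alleles lack. What the allele does inside the Treg and what the rest of the animal does to them cannot be told apart. All groups were sorted through the same gate, which took live cells positive for TCRβ, CD4, GFP and CD25. This gate selects for T cell receptor and CD4 protein, and it names no B cell protein for exclusion, while lung cells were first enriched for CD4 cells by negative magnetic selection. Each library came from 1000 cells sorted again into lysis buffer. Whether the 3 libraries of a group stem from different mice is not stated in the labels. A p-value here therefore reflects how far libraries differ from each other, and that spread may be technical.

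Antibodies are made of heavy chains and light chains. The heavy chain locus on mouse chromosome 12 holds variable (V), diversity (D) and joining (J) segments upstream of the constant genes, of which Ighm comes first and Ighd second. B cells join V, D and J segments and splice them to the Ighm exons. The unrearranged locus is also transcribed, as germline transcripts that start in the intronic enhancer or just upstream of the D segment nearest to the J segments, and these too are spliced to the Ighm exons. Counts summed per gene do not tell these kinds of transcript apart. On the B cell surface, IgM pairs with light chains and signals through Cd79a and Cd79b.

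Depth was 3958892 to 9025150 counts per library. At that depth 3 counts, taken as the floor of detection, stand for 0.334 to 0.777 CPM (counts scaled to a common total per library). Foxp3 was at 991 to 1096 CPM in spleen WT and 113.9 to 226.6 CPM in spleen ∆Foxp3. The lung WT libraries had 1328 to 1418 CPM of it and lung ∆Foxp3 had 188.8 to 469.1. The sum of 11 T cell identity genes was 8057 to 9660 CPM in spleen WT and 8086 to 8242 CPM in lung WT. It was lower in every ∆Foxp3 library, at 6653 to 7478 CPM in spleen and 6523 to 7557 CPM in lung. Of the libraries, spleen WT 1 lay apart on the second principal component (15.3% of the variance, after 43.4% on the first), and the numbers of genes detected in lung WT 1 (22981) and lung ∆Foxp3 3 (23649) exceeded those of their groups. These 3 are called the libraries that stand apart below.

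Ighm (chromosome 12, 113418558 to 113422730, minus strand, mm10, with 1886 nt of exons) had 11157, 6939 and 7049 counts in the spleen WT libraries and 595, 557 and 352 in spleen ∆Foxp3. In lung it had 9003, 7422 and 10722 counts in WT and 1000, 553 and 663 in ∆Foxp3. On the CPM scale its level was 1243, 1240 and 1088 in spleen WT, and 130.1, 133.5 and 50.51 in spleen ∆Foxp3. In lung the level was 1939, 1923 and 1885 CPM in WT and 230.7, 109.6 and 148.1 CPM in ∆Foxp3. Every WT library was thus above every ∆Foxp3 library, and the ∆Foxp3 libraries still held 352 to 1000 counts, far over the floor. The means differed 11.4-fold in spleen (1190 ± 88.6 against 104.7 ± 47.0 CPM, SD, n = 3) and 11.8-fold in lung (1916 ± 27.7 against 162.8 ± 61.9 CPM). The fitted log2 difference, ∆Foxp3 minus WT, was −3.51 ± 0.34 (SE) in spleen and −3.56 ± 0.34 in lung. In such bulk libraries, fewer cells that hold a transcript and less of it per cell cannot be told apart.

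Per kilobase of exon, a scale on which genes can be compared, Ighm was among the highest transcripts of the WT Treg libraries. It was at 576.7 to 658.9 CPM per kb in spleen WT and ranked 44 to 53 among 13058 tested genes with a known length. In lung WT it was at 999.5 to 1028 CPM per kb, at rank 28 to 31. Cd3e, a subunit of the T cell receptor complex, was at 212.8 to 227.1 CPM per kb in spleen WT and 181.7 to 199.8 in lung WT, below Ighm in all 6 WT libraries. Trbc2, which encodes the constant part of a T cell receptor chain, was above Ighm there, at 1241 to 1701 CPM per kb. In the ∆Foxp3 libraries Ighm was at 26.78 to 122.3 CPM per kb, at rank 390 to 2106, and below Cd3e, which was at 162.5 to 181.5 CPM per kb.

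Between tissues, a contrast that did not enter the choice of genes, Ighm was 1.61-fold higher in lung WT than in spleen WT. The groups did not overlap, as for 25.6% of all tested genes. The log2 difference, lung minus spleen, was 0.69 ± 0.31 and did not pass the test (adjusted p = 0.244, edgeR quasi-likelihood test with Benjamini-Hochberg adjustment over all genes tested). With only the 6 WT libraries in the fit it passed, at an adjusted p of 0.00612, and over all alternatives that p ran from 0.00612 to 0.499. Lung WT also held 1983 to 4916 CPM of 7 erythroid genes against 9.10 to 17.6 CPM in spleen WT, and the tissues were dissociated in different ways, so the part of these differences in the Ighm value was not tested. In ∆Foxp3 the difference was 0.64 ± 0.31 (adjusted p = 0.584), and the groups overlapped. The difference between the genotype effects of lung and spleen was −0.04 ± 0.44 (adjusted p = 0.999), and its sign changed with the scaling; 0.925% of all tested genes passed this test.

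**Figure D1:**
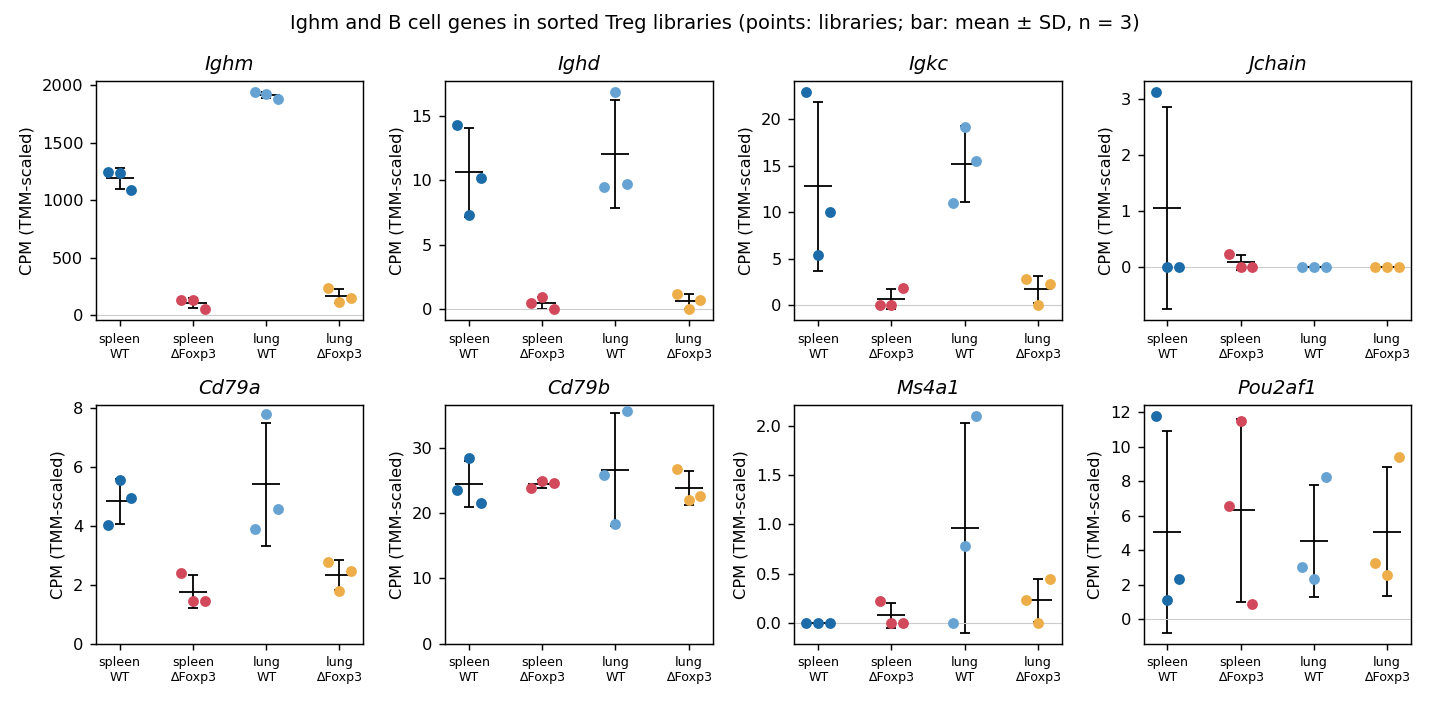
Level of Ighm and the 7 B cell genes in each of the 12 libraries, in CPM on a linear axis with its own range in each panel; points are libraries, and bars are mean ± SD of 3 libraries. Ighm reaches 1088 to 1939 CPM in the WT libraries, while none of the other 7 genes exceeds 35.7 CPM in any library.

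The D and J segments just upstream of Ighm are shown because most of the counts given to immunoglobulin gene segments in the WT libraries fell on a few of them. Their germline sequences, read 5′ to 3′ on the coding strand from the GENCODE M21 transcripts of GRCm38 (the assembly behind mm10), are printed with capitals on the stretch that encodes the conserved Trp-Gly-X-Gly motif of a J segment. It was found as a tryptophan codon, a glycine codon, any codon and a glycine codon in a row, searched on the coding strand of these J segments only, and each of the 4 held it once. The D segment nearest to the J segments, Ighd4-1 (chromosome 12, 113430528 to 113430538), and the J segments Ighj1 (113429781 to 113429833), Ighj2 (gene 113429468 to 113429567, with the shorter transcript printed), Ighj3 (113429085 to 113429132) and Ighj4 (113428514 to 113428567) all lie on the minus strand.
Ighd4-1: ctaactgggac
Ighj1: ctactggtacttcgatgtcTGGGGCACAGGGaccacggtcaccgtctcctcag
Ighj2: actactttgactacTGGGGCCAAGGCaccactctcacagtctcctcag
Ighj3: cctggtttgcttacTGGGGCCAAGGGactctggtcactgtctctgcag
Ighj4: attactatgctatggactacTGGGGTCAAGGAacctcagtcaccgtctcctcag

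Ighj1, the J segment next to the D segments, had 42, 41 and 38 counts in spleen WT and 1, 2 and 0 in spleen ∆Foxp3. In lung it had 37, 37 and 35 counts in WT and 5, 3 and 0 in ∆Foxp3. The WT libraries were close to each other and all lay above the ∆Foxp3 libraries. Summed over the group and scaled by depth, Ighj1 was 30.1-fold higher in spleen WT (121 against 3 counts, exact 95% binomial interval 10.1 to 148, counting error only). The fitted log2 difference was −4.73 ± 0.92 (SE) in spleen and −3.71 ± 0.82 in lung. Ighj1 was taken for its high counts, which are those of WT, and the same RNA can carry it and Ighm, so these differences are a description with no test. Between tissues Ighj1 did not pass the test (adjusted p = 0.797 in WT and in ∆Foxp3, edgeR).

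Ighd4-1, at 11 nt the shortest feature named here, had 10, 20 and 13 counts in spleen WT and 9, 12 and 8 in lung WT. It had 0 counts in all 6 ∆Foxp3 libraries. It was at least 10.7-fold higher in spleen WT and at least 9.44-fold higher in lung WT, with 3 counts in the whole ∆Foxp3 group as the limit. It too was taken for its counts, all of them in WT, so no test of its genotype difference is given. Ighj4 had 8, 2 and 10 counts in spleen WT, 0 in each spleen ∆Foxp3 library, 6, 3 and 7 in lung WT and 2, 0 and 1 in lung ∆Foxp3. Of the 380 immunoglobulin V, D and J segments in the table, only Ighj1 and Ighd4-1 passed the low-count filter, both through their WT counts.

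Summed by class, the 4 heavy chain J segments held 44 to 53 counts in the spleen WT libraries and 46 to 51 in lung WT, which is 4.29 to 7.38 per 1000 Ighm counts. The ∆Foxp3 libraries held 0 to 9 such counts. The 183 heavy chain V segments together held 9 to 41 counts in spleen WT and 22 to 35 in lung WT, which is 1.30 to 4.11 per 1000 Ighm counts. In ∆Foxp3 they held 2 to 8 counts in spleen and 10 to 29 in lung, which overlaps lung WT. Per kb, the V segments summed to 6.63 to 21.0 per 1000 of Ighm in the WT libraries, and the J segments to 147.9 to 255.0. The J genes span only 48 to 100 nt, and a fragment that reaches past so short a feature can still count for it. Division by length can thus raise J over V, and the size of the gap per kb is not to be read as one of transcript level. In spleen ∆Foxp3 the V segments were at 22.8 to 115.5 and the J segments at 0 to 127.8. In lung ∆Foxp3 they were at 60.3 to 218.5 and 52.7 to 285.5. The ranges of V and J thus overlapped in ∆Foxp3, where both rest on few counts.

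Some V counts lay on segments seen in 1 library only, and other segments recurred. Ighv6-3 had 5 and 2 counts in spleen WT 2 and 3, 2, 1 and 6 in lung WT, and 3 in lung ∆Foxp3 3. In spleen WT 1, Ighv1-54 had 17 and Ighv3-6 had 16 of the 41 V counts, and Ighv3-6 had 0 in the other 11 libraries. In lung WT 1 the 35 V counts were spread over 15 segments, with at most 4 on any. The 160 kappa V segments held 10 to 19 counts in spleen WT, 4 to 16 in spleen ∆Foxp3, 12 to 25 in lung WT and 3 to 15 in lung ∆Foxp3, and the groups overlapped in both tissues. In lung WT 3, Igkv14-100 alone had 15 of the 25. The kappa J segments held 0 to 3 counts in any library, the lambda V segments 0 to 3 and the lambda J segments 0. V segments are families of near-identical copies, and the labels do not state how multi-mapped reads and fragments that touch more than 1 gene were counted. A fragment that spans a J segment and Ighm, or a rearranged junction, may therefore be missing from these counts.

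**Figure D2:**
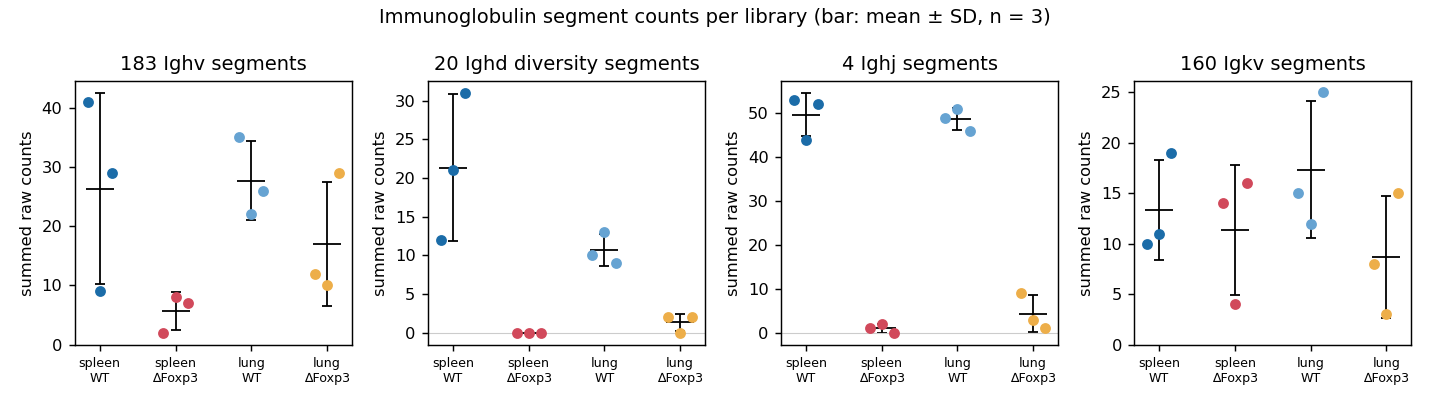
Raw counts summed over the heavy chain V, D and J segments and the kappa V segments in each library; points are libraries, and bars are mean ± SD of 3 libraries. Heavy chain J segments hold 44 to 53 counts in the WT libraries and 0 to 9 in ∆Foxp3, while the kappa V counts of the genotypes overlap.

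Ighd encodes the heavy chain of IgD, which naive B cells make from the same long transcript as Ighm by alternative splicing (chromosome 12, 113406604 to 113416324, minus strand). It had 128, 41 and 66 counts in spleen WT and 2, 4 and 0 in spleen ∆Foxp3. In lung it had 44, 65 and 55 counts in WT and 5, 0 and 3 in ∆Foxp3. The WT libraries were all above the ∆Foxp3 libraries, of which 1 in each tissue held no count. The WT level was 7.33 to 14.3 CPM in spleen and 9.48 to 16.8 CPM in lung. The log2 difference, ∆Foxp3 minus WT, was −4.62 ± 0.86 in spleen and −4.29 ± 0.83 in lung. Per kb, Ighd was at 4.85 to 11.4 per 1000 of Ighm in the WT libraries, and at 0 to 7.13 in ∆Foxp3.

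Igkc is the constant part of the kappa light chain, which most mouse antibodies carry (chromosome 6, 70726435 to 70726966, plus strand). It had 206, 30 and 65 counts in spleen WT and 0, 0 and 13 in spleen ∆Foxp3. In lung it had 51, 74 and 88 counts in WT and 12, 0 and 10 in ∆Foxp3. The WT libraries were again all above the ∆Foxp3 libraries, with spleen WT 1 far over the other two of its group. The level was 5.36 to 22.9 CPM in spleen WT and 10.98 to 19.18 CPM in lung WT. The log2 difference was −4.08 ± 1.05 in spleen and −3.20 ± 0.99 in lung, and the spleen value was −9.08 without spleen ∆Foxp3 3, which held all 13 counts of its group. Per kb, Igkc was at 15.3 to 65.5 per 1000 of Ighm in the WT libraries, so Ighm exceeded the light chain transcript in each of them. The span of Igkc overlaps the predicted noncoding gene Gm30211 on the same strand, which shares no exonic base with it and had 0 to 21 counts.

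Jchain, the small protein that links IgM units into pentamers and is made by antibody-secreting cells (chromosome 5, 88519809 to 88527891), had 28 counts in spleen WT 1, 1 count in spleen ∆Foxp3 1 and 0 in the other 10 libraries. In those 10 libraries a count of 0 allows up to 0.4305 to 0.777 CPM at their depths. Spleen WT 1, the deepest library, was thus the one with most raw counts of Ighd, Igkc and Jchain alike. The level of Ighm there, 1243 CPM, was next to that of spleen WT 2, at 1240 CPM, where Jchain was at 0 and Igkc at 5.36 CPM.

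Cd79a and Cd79b are the signalling chains that hold the B cell receptor at the membrane. Cd79a (chromosome 7, 24897381 to 24902197) had 36, 31 and 32 counts in spleen WT, 11, 6 and 10 in spleen ∆Foxp3, 18, 30 and 26 in lung WT and 12, 9 and 11 in lung ∆Foxp3. The groups did not overlap in either tissue, but its levels were low, from 3.88 to 7.77 CPM in WT libraries and from 1.44 to 2.77 in ∆Foxp3. The log2 difference was −1.45 ± 0.53 in spleen and −1.20 ± 0.52 in lung, a smaller one than that of Ighm. Cd79b (chromosome 11, 106311341 to 106314762) had 211, 159 and 140 counts in spleen WT, 109, 104 and 171 in spleen ∆Foxp3, 120, 71 and 203 in lung WT and 116, 111 and 101 in lung ∆Foxp3. Its level of 18.4 to 35.7 CPM overlapped between genotypes. The log2 difference was 0.00 ± 0.25 in spleen and −0.17 ± 0.25 in lung.

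Ms4a1 encodes CD20, a surface protein of mature B cells (chromosome 19, 11249675 to 11266241). It had 0 counts in each spleen WT library, 1, 0 and 0 in spleen ∆Foxp3, 0, 3 and 12 in lung WT and 1, 0 and 2 in lung ∆Foxp3. Lung WT 3, with 12 of the 19 counts, was the single library over the floor. Pou2af1 encodes a coactivator that works with octamer-binding factors at immunoglobulin promoters (chromosome 9, 51213708 to 51240080). It had 106, 6 and 15 counts in spleen WT and 30, 48 and 6 in spleen ∆Foxp3. In lung it had 14, 9 and 47 counts in WT and 14, 13 and 42 in ∆Foxp3. Its libraries varied over 10-fold within the spleen groups and overlapped between genotypes, with log2 differences of 0.26 ± 0.92 and 0.13 ± 0.94.

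Of the 6 tested genes, Ighm, Ighd, Igkc and Cd79a were lower in ∆Foxp3 with no overlap of libraries in either tissue, and Cd79b and Pou2af1 overlapped. Among all tested genes, 19.5% were lower with no overlap in spleen and 22.2% in lung; since the genotype contrast chose the genes, nothing is read from their count. The median log2 difference of the 6 was −2.48 in spleen and −2.20 in lung (−0.02 and −0.01 over all genes tested). Ighd and Igkc passed the filter through their WT counts. The median too follows from the choice of genes, and nothing is read from it. Both genotype comparisons have their own WT and ∆Foxp3 libraries. Between tissues, 0 of the 6 genes passed the test in WT (edgeR, adjusted p under 0.05), where 4.13% of all tested genes did, and 0 in ∆Foxp3, where 0.722% did. At an unadjusted p under 0.05, 1 of the 6 passed in WT, which was Ighm, and 0 in ∆Foxp3. Beside Ighm, the smallest adjusted p of the 6 between tissues was 0.836, for Cd79b in WT.

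**Figure D3:**
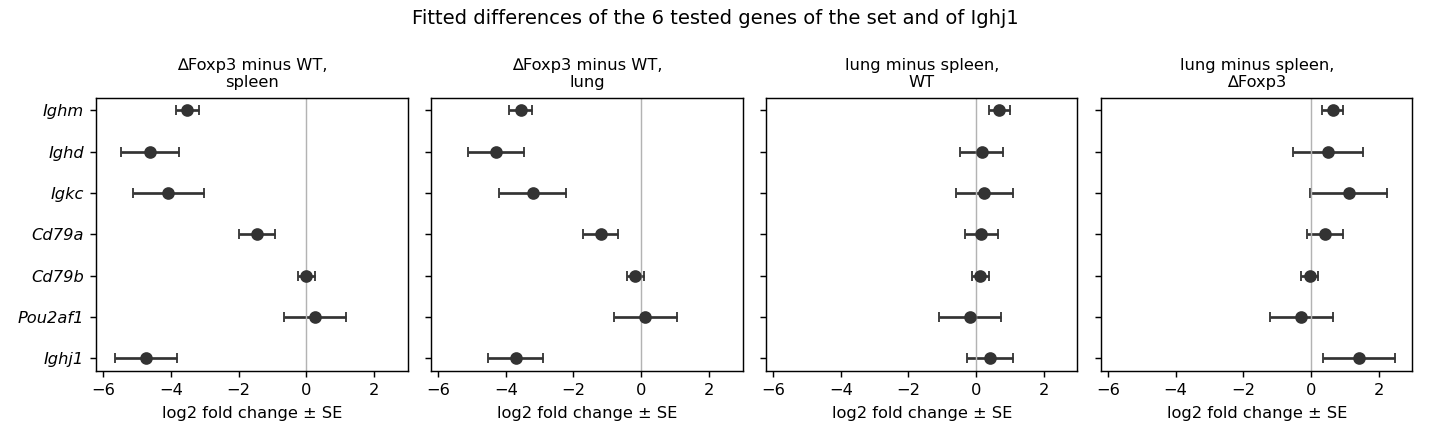
Fitted log2 differences with SE of the 6 tested genes and of Ighj1, for ∆Foxp3 minus WT in each tissue and for lung minus spleen in each genotype. Ighm, Ighd, Igkc, Cd79a and Ighj1 lie below 0 in both genotype panels, and no gene passed the test in the tissue panels.

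Whether Ighm in WT Treg came with other B cell transcripts was asked within each library, as counts of the other 7 genes per 1000 Ighm counts, a ratio that library scaling does not touch. The 7 genes together held 64.1, 38.5 and 45.1 in the spleen WT libraries and 27.4, 34.0 and 40.2 in lung WT. In ∆Foxp3 they held 258.8, 290.8 and 568.2 in spleen and 160.0, 240.5 and 254.9 in lung. The ratio was lower in every WT library than in every ∆Foxp3 library. This restates the difference in Ighm, which is the denominator, beside a mean level of Cd79b of 24.5 CPM in spleen WT and 24.4 in spleen ∆Foxp3, and is no further result. Per kb of exon, which compares the genes themselves, the 7 genes summed to 57.8 to 114.9 per 1000 of Ighm in spleen WT and 46.2 to 65.9 in lung WT. In spleen ∆Foxp3 they summed to 307.8 to 820.6 per 1000, and in lung ∆Foxp3 to 226.6 to 328.0.

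Cd79b made up most of this difference, with 9.57 to 22.9 counts per 1000 Ighm counts in WT and 116 to 485.8 in ∆Foxp3. Without Cd79b and Pou2af1 the other 5 genes held 14.7 to 35.7 per 1000 Ighm counts in spleen WT and 18.0 to 65.3 in spleen ∆Foxp3, and 12.6 to 23.2 in lung WT and 16.3 to 39.2 in lung ∆Foxp3. These ranges overlapped. Cd79a per 1000 Ighm counts was 2.00 to 4.54 in WT and 10.8 to 28.4 in ∆Foxp3, while Ighd was 4.89 to 11.5 in WT and 0 to 7.18 in ∆Foxp3. Igkc overlapped widely, at 4.32 to 18.5 in WT and 0 to 36.9 in ∆Foxp3.

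**Figure D4:**
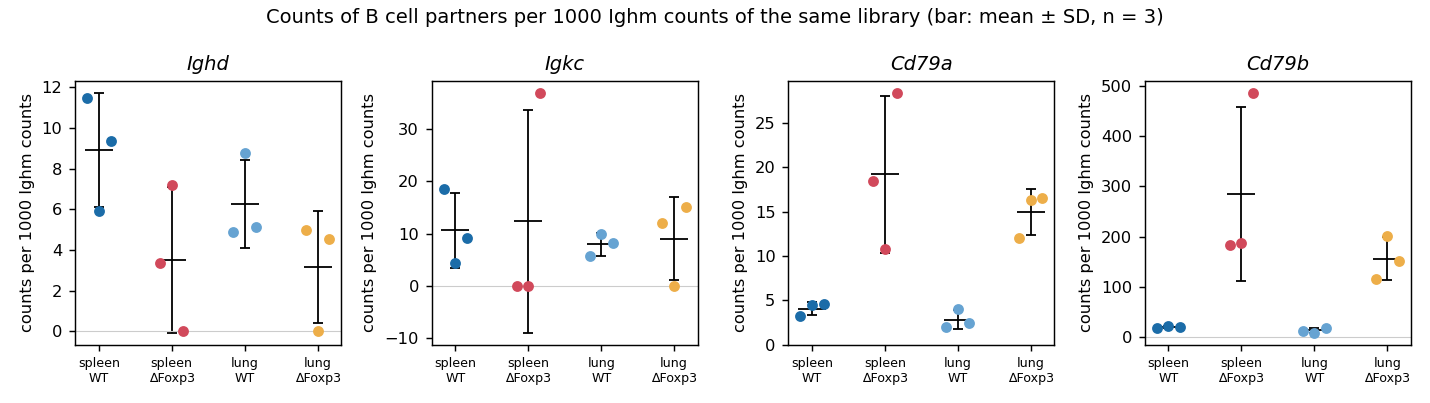
Counts of Ighd, Igkc, Cd79a and Cd79b per 1000 Ighm counts of the same library, with a linear axis of its own in each panel; points are libraries, and bars are mean ± SD of 3 libraries (the SD can pass below 0). Cd79a and Cd79b are higher relative to Ighm in every ∆Foxp3 library, and Ighd and Igkc overlap between genotypes.

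Other genes of B cells were taken from 6 lists with 55 genes, of which 15 passed the low-count filter. These lists, and those of the paragraphs below, were drawn up with earlier results of these data known. Their genotype p-values are therefore not those of genes chosen without sight of the data. In spleen, 4 of the 15 (26.7%) passed the genotype test, against 26.6% of all tested genes, with 2 higher and 2 lower in ∆Foxp3. In lung, 3 of the 15 did, against 20.2% of all, with 2 higher and 1 lower. The median log2 difference of the 15 was 0.22 in spleen and −0.06 in lung. The share in each tissue is near the background and is no result about B cell genes. With limma voom 7 of the 15 passed in spleen, where 27.6% of all tested genes did.

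Of 18 genes of the B cell receptor complex and surface, 6 passed the low-count filter and were tested. Cd72, a surface protein that restrains B cell receptor signalling, was the single one called. It had 203, 153 and 116 counts in spleen WT and 20, 6 and 21 in spleen ∆Foxp3, a log2 difference of −2.92 ± 0.41 (adjusted p = 0.000142, edgeR). In lung it had 67, 75 and 68 counts in WT and 17, 28 and 15 in ∆Foxp3, a log2 difference of −1.82 ± 0.40 (adjusted p = 0.00552, and 0.0573 without the libraries that stand apart). Ly86 and Cd180, which form a receptor pair on B cells and myeloid cells, had 95 and 68 counts in spleen WT 1 and at most 33 and 7 in any other library.

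Of 8 B cell transcription factors, 2 were tested, Pou2f2 and Irf8. Pou2f2, which binds octamer motifs in immunoglobulin promoters, fell in spleen ∆Foxp3 (53.8 ± 8.81 against 24.2 ± 3.29 CPM, log2 −1.16 ± 0.21, adjusted p = 0.00105, edgeR). Irf8, a factor of B and myeloid cells, rose in lung ∆Foxp3 from 14.9 ± 6.07 to 62.9 ± 17.1 CPM (log2 2.09 ± 0.35, adjusted p = 0.000876). Ebf1, which commits progenitors to the B lineage, had at most 6 counts in any library. Pax5, which maintains B cell identity, had at most 3.

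Of 8 plasma cell genes, 5 were tested, and Prdm1 and Txndc5 rose in spleen ∆Foxp3. Prdm1, a repressor that drives plasma cells and also acts in effector Treg, had a log2 difference of 1.10 ± 0.27 (adjusted p = 0.0086, edgeR). Txndc5, a protein-folding enzyme of the endoplasmic reticulum, had one of 1.24 ± 0.29 (adjusted p = 0.00586). Neither of these is confined to plasma cells. Mzb1, a chaperone of immunoglobulin assembly, had 0 counts in all 12 libraries, and Tnfrsf17, a receptor of plasma cells, had 0 or 1. The 10 other immunoglobulin constant genes all fell below the filter, with 15 to 19 summed counts in the spleen WT libraries and 4 to 18 in lung WT. In ∆Foxp3 they summed to 1 to 4 counts in spleen and 5 to 25 in lung. Igha, the IgA heavy chain, had 14, 13 and 6 counts in spleen WT and 0, 0 and 1 in spleen ∆Foxp3. Ighg3 had 24 counts in lung ∆Foxp3 1. In lung, where no plasma cell gene was called, Xbp1 and Irf4, the 2 with most counts, had log2 differences of 0.55 ± 0.37 (adjusted p = 0.334) and 1.08 ± 0.51 (adjusted p = 0.158). The 6 genes of B cell precursors and recombination were all below the filter, with the largest sum, 25 counts, in lung WT 1. Among them Dntt, which adds bases at V(D)J junctions, had 47 counts over the 12 libraries, at most 18 in 1, and Vpreb1, part of the surrogate light chain, had at most 8 in 1. Of 5 germinal centre genes, 2 were tested. S1pr2, a migration receptor also found on T cells, was higher in lung ∆Foxp3 than in lung WT (log2 0.88 ± 0.23, adjusted p = 0.0163). It was lower in lung WT than in spleen WT (−1.11 ± 0.23, adjusted p = 0.0139), as the single gene of the 15 called between tissues. Both S1pr2 calls were lost in some alternatives, at adjusted p up to 0.0589 and 0.0591.

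**Figure D5:**
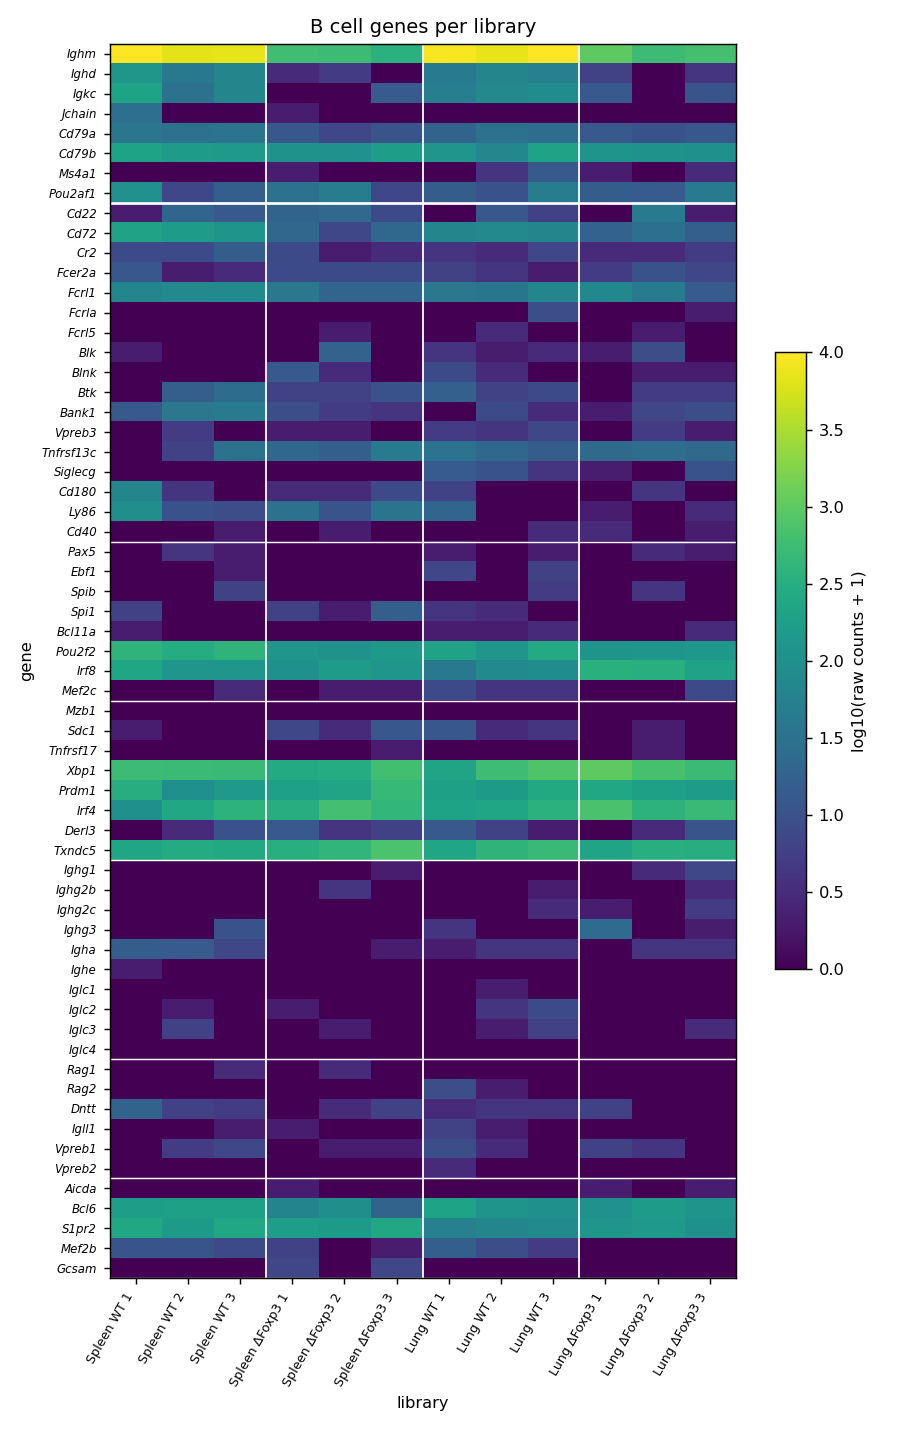
Raw counts of the 8 genes and of further B cell genes of the 6 lists in each library, as log10(counts + 1), with white lines between groups of libraries and between gene lists. Ighm is the brightest row, with 6939 counts or more in every WT library, and most rows below it are at or near 0.

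Proteins that bind IgM were measured as 4 genes. Fcmr, the Fc receptor for IgM, had 2, 50 and 20 counts in spleen WT and 1, 4 and 2 in spleen ∆Foxp3, and 27, 42 and 37 in lung WT and 2, 5 and 0 in lung ∆Foxp3. Its log2 difference, ∆Foxp3 minus WT, was −3.90 ± 1.12 in lung and −3.05 ± 1.11 in spleen. Fcmr passed the low-count filter through its WT counts, so these differences are a description with no test. Cd5l, a macrophage protein that travels on circulating IgM, was higher in spleen ∆Foxp3 (3.69 ± 1.11, adjusted p = 0.0329, edgeR), a call lost in 11 of 20 alternatives. Pigr and Fcamr, which carry or bind polymeric IgM, were below the filter. The sum of 10 myeloid genes was 21.1 to 67.9 CPM in spleen WT and 34.3 to 170.1 CPM in spleen ∆Foxp3. Within spleen ∆Foxp3 this sum and Cd5l put the libraries in the same order. In spleen WT they did not, as spleen WT 1 had the highest sum and 0 counts of Cd5l. The part of the myeloid sum in the Cd5l value was not tested.

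Of 8 genes of antigen presentation on MHC class II, which B cells and myeloid cells share, H2-Ob was the one called lower in both tissues. It encodes a chain of the modulator of peptide loading that B cells carry, and had 1116, 777 and 939 counts in spleen WT, 72, 9 and 36 in spleen ∆Foxp3, 786, 566 and 740 in lung WT and 58, 34 and 9 in lung ∆Foxp3. Its log2 difference was −4.15 ± 0.58 in spleen (adjusted p = 0.000275, edgeR), and that in lung was −4.34 ± 0.59 (adjusted p = 0.000408). H2-DMa, part of the loading enzyme itself, rose in spleen (1.30 ± 0.27, adjusted p = 0.00293) as in lung (1.78 ± 0.28, adjusted p = 0.000652). H2-DMb2 was also higher in spleen ∆Foxp3, by 3.35 ± 0.81. It passed the low-count filter through its ∆Foxp3 counts, so this value is a description with no test. H2-Aa and H2-Ab1, the class II chains, were called higher in spleen ∆Foxp3 at adjusted p of 0.0468 and 0.0481, and each of these calls was lost in 11 of 21 alternatives. In all, 4 of the 8 were higher and 1 lower in spleen, where 26.6% of all tested genes were called, and 1 was higher and 1 lower in lung, near the 20.2% of all tested genes called there.

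The genes whose log2 CPM followed Ighm most closely over the 12 libraries, among the 8926 tested genes that averaged at least 10 CPM, were Chd3 (Pearson r 0.988), Ifi209 (0.986), Slc35d1 (0.983), Rhoh (0.979), Adamts6 (0.978), Ifi214 (0.977), Stambpl1 (0.976) and Ccs (0.976). The same measure exceeded 0.9 for 321 genes, 3.6% of those compared, since all genes that differ strongly between the genotypes share the same groups of libraries. Of the other members, r was 0.973 for Ighd, 0.915 for Cd79a, 0.841 for Igkc, 0.161 for Cd79b and 0.013 for Pou2af1. After each group's mean was subtracted, which leaves the variation within groups, r to Ighm was highest for Apol9b (0.942), Tnfaip8 (0.914), Skil (0.913), Dnah8 (0.908), Zfp862-ps (0.907), Nploc4 (0.906), Art2b (0.902) and C330018D20Rik (0.901). On that scale it was 0.815 for Ighd, 0.537 for Pou2af1, 0.403 for Cd79a, 0.161 for Cd79b and −0.164 for Igkc. Of the segments, Ighj1 was at 0.545 and Ighd4-1 at 0.008. These are descriptions over 12 libraries that share groups and depth, and they say nothing of shared function or control.

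Lists of other cell types were measured beside these genes. Of 11 T cell identity genes, 5 were lower and 2 higher in spleen ∆Foxp3, and 3 were lower and 1 higher in lung ∆Foxp3. Of all tested genes, 26.6% were called in spleen and 20.2% in lung, against which the counts of this paragraph are to be read. Cd4, a protein of the sorting gate, was the one higher in both tissues (0.38 ± 0.12, adjusted p = 0.0245, and 0.37 ± 0.12, adjusted p = 0.034, edgeR). The lower ones in both tissues were Cd5, Trbc1 and Trbc2, with Cd5, a regulator of receptor signalling, at −0.68 ± 0.13 in spleen (adjusted p = 0.00147, edgeR) and −0.81 ± 0.13 in lung (adjusted p = 0.000697). Of 10 myeloid genes, 7 were tested, with 2 higher in spleen ∆Foxp3 and 1 in lung ∆Foxp3, shares near or below those of all genes. Among these Xcr1, a receptor of cross-presenting dendritic cells, had log2 differences of 4.68 ± 0.89 in spleen and 2.99 ± 0.73 in lung. Xcr1 passed the low-count filter through its ∆Foxp3 counts, so these values are a description with no test. Clec9a, of the same list, had 0 counts in all 12 libraries. The log2 differences of the 7 tested myeloid genes were 5 positive and 2 negative in spleen, and 3 positive and 4 negative in lung. All 7 erythroid genes were tested. In lung ∆Foxp3 3 of them were lower, in spleen ∆Foxp3 2 were higher, and 4 were higher in lung WT than in spleen WT (4.13% of all tested genes were called there), among them Hba-a2 and Hbb-bt, which encode globin chains. The erythroid sum was 9.10 to 17.6 CPM in spleen WT, 10.8 to 479 in spleen ∆Foxp3, 1983 to 4916 in lung WT and 1.39 to 403 in lung ∆Foxp3, and its part in the differences above was not tested.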

How the data were processed

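Treg of spleen and lung were profiled by Smart-seq2, per the labels' protocols: an oligo(dT) primer, fragmentation by Tn5, 18 cycles of amplification and paired reads of 38 nt, with no molecular identifiers. Counting intervals and floors therefore cover counting error only. Spleens were dissociated mechanically, and lungs were perfused, digested with enzymes and enriched for CD4 cells by negative magnetic selection. The tools, per the submitters' processing notes, were the aligner STAR (2.7.3a) and featureCounts of Subread (2.0.0), with build mm10. Their annotation, strand setting and treatment of multi-mapped reads were not found in the labels or the file.

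As the authors' values, the deposited table gives raw counts for 55011 gene symbols in 12 libraries, and these entered the fit unchanged. Coordinates and exon lengths came from GENCODE M21 (GRCm38), in which 96.4% of the symbols matched. No 2 libraries of a group agreed within sampling noise.

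Counts were fitted with edgeR 4.0.16 (R 4.3.3; TMM factors, filterByExpr by group with a minimum count of 10, robust quasi-likelihood F test) in 1 model of 4 groups over 12 libraries. Two-sided p-values were adjusted by Benjamini-Hochberg over 13295 genes, and called means below 0.05 after adjustment. The procedure was tested on simulated data. CPM are TMM-scaled, log2 CPM used a prior count of 2, and ratios used raw counts. Alternatives were RLE size factors, library totals, DESeq2 1.42.0, limma voom (3.58.1), no filter, a filter of 10 CPM or more in 3 libraries, only the groups compared, the replicate number as a block, and leaving out each library or the 3 that stand apart. Ratios were also computed per kb and without Cd79b and Pou2af1.

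The members and lists were chosen with earlier results of these data known. Named were all 8 members, up to 4 called genes of each list per contrast (or its most abundant 2), the 3 segments with most counts, and the 8 genes most like Ighm on each scale. Single V segments, genes of the lists at or near 0, and Cd180, Ly86 and Ighg3 were named after their values were seen. The values of 1 gene of the B cell lists are not reported here. Figures were drawn with matplotlib 3.10.9.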

Additional observations from a re-analysis of the deposited data

Results flagged for a closer look

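Ciita, the master activator of MHC class II genes, had fitted genotype differences of opposite sign in the 2 tissues, and passed no test in either. It had 2, 13 and 16 counts in spleen WT and 14, 19 and 60 in spleen ∆Foxp3, and 67, 11 and 25 in lung WT and 3, 14 and 9 in lung ∆Foxp3. The log2 difference, ∆Foxp3 minus WT, was 1.73 ± 0.82 in spleen (adjusted p = 0.136, edgeR) and −1.96 ± 0.83 in lung (adjusted p = 0.11). On the CPM scale every ∆Foxp3 library was above every WT library in spleen and below every WT library in lung. Lung WT 1, a library that stands apart, was at 14.4 CPM of Ciita against 2.85 and 4.40 in the other lung WT libraries, next to 2.78 in the highest lung ∆Foxp3 library. Its sum of 10 myeloid genes was 172.5 CPM against 19.2 and 12.3, and the part of this in the Ciita value was not tested. The difference of the genotype effects, lung minus spleen, was −3.69 ± 1.17 on the log2 scale and did not pass the test (adjusted p = 0.235, edgeR).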

How the results depend on the processing

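The genotype difference of Ighm kept its sign under all 21 alternatives, at −3.73 to −3.17 in spleen and −3.85 to −3.30 in lung, both also the range when each library was left out. Lung minus spleen in WT was 0.63 to 0.74 when each library was left out, and passed the test only with the groups compared alone in the fit (0.69, adjusted p = 0.00612), where 1 member was then called between tissues in WT. In ∆Foxp3 it was 0.30 to 0.88. The difference of the genotype effects (−0.04) turned sign with library totals (0.01), limma voom (0.06) and in 5 of the fits without 1 library (range −0.38 to 0.18); it was not run with only the groups compared. Of the other B cell genes, 7 were called in spleen with limma voom (27.6% of all tested genes were) and 4 to 6 without 1 library (19.1% to 26.1%). In lung, 5 were called with only the groups compared (32.9%), 1 without the libraries that stand apart (9.66%), and 2 to 5 without 1 library (10.3% to 24.6%), with 5 without spleen WT 1.

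The other 7 genes per 1000 Ighm counts (means 49.2 and 373 in WT and ∆Foxp3 spleen, 33.9 and 218 in WT and ∆Foxp3 lung) were 24.5, 36.2, 17.5 and 28.5 without Cd79b and Pou2af1, and 82.8, 486, 58.3 and 286 per kb. Without 1 library they were 41.8 to 54.6, 275 to 430, 30.7 to 37.1 and 200 to 248. Of the 27 results for single genes, none reversed, and 47 values lost their call.

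Samples with the same replicate number correlated at −0.0439 to 0.0871 in their deviations from the group means, and samples with different numbers at −0.0921 to 0.0585. Not every sample correlated best with its own number. With 3 libraries per group, such values cannot decide whether the numbers pair the samples. With the number as a block the Ighm differences were −3.57 and −3.59, and 3314 against 3540 genes were called in spleen and 2422 against 2686 in lung; Cd5l lost its call (adjusted p = 0.14). Depth limits Jchain, Ms4a1 and the segments, whose levels are near the floor. The causes of these changes were not tested.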
